A study of Mus musculus with 180 samples.

Results

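The protocadherins are the largest subgroup of the cadherin superfamily of cell-adhesion proteins, and their RNA was followed across ribosome-bound and total RNA of the mouse hippocampus. The genes were taken by name: every symbol beginning with Pcdh was collected, opposite-strand transcripts and pseudogene symbols were set aside, and a gene was kept if it had a count in at least 90 of the 180 libraries. Of 69 such genes, 66 were kept, out of 54429 symbols in all. They were 12 Pcdha, 21 Pcdhb and 21 Pcdhg genes, together 54 clustered genes, and 12 nonclustered genes. Pcdha4 had a count in 39 libraries, Pcdhb1 in 81 and Pcdhga10 in 0, and these 3 were not kept. Pcdhga10 has 0 exon bases that it does not share with another gene in the GENCODE annotation.

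Libraries came from 30 male mice, 6 from each mouse. The labels give the tissue as brain and the cell type as neuron, and the series title places the study in the hippocampus. Every mouse, the untrained and rested ones included, came from a cross that carried the transgene Tg(Camk2a-cre)T29-1Stl, on a B6.Cg background, and the allele Rpl22tm1.1Psam, from B6N.129 mice. In this RiboTag design Cre under the Camk2a promoter, active mainly in forebrain excitatory neurons, puts an HA tag on the ribosomal protein Rpl22. The homogenate of each mouse was divided into a supernatant, called cytosolic here, and a pellet holding membrane-bound ribosomes, called membrane here. From both fractions ribosomes were captured with an antibody against HA (the Camk2a capture) or against phosphorylated ribosomal protein S6, a mark of recently active neurons (the pS6 capture), and the remainder was kept as Input. Mice were either not trained (NoCFC) or trained by contextual fear conditioning (CFC), and then either slept (Sleep) or were sleep-deprived (SD). Of the untrained mice 8 slept and 7 were sleep-deprived, and so it was with the trained mice. Ages and the length of the deprivation are not given in the sources used here. In the report the letters SD mean sleep deprivation when they name a group, and the standard deviation when they follow a ± value.

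Library totals ran from 11.98 to 26.95 M counts (M for mega), with a median of 18.91 M. As the reads carry no molecular identifiers, some may be copies of 1 molecule, and depth covers counting error only. Mice numbered 1 to 11 were all untrained and those numbered 12 to 22 all trained, while 23 to 30 held 4 of each. The labels name no batch, so among mice 1 to 22 training and number cannot be told apart. The library types were checked against defining markers of cell types. Summed CPM (library-scaled counts, per M counts) of 10 excitatory neuron markers had medians of 10670 and 12500 in the cytosolic and membrane Camk2a libraries, against 6653 and 8541 in Input. Summed CPM of 13 astrocyte markers was 302.2 in cytosolic Camk2a libraries but 3092 in membrane Camk2a and 6020 in membrane pS6 libraries, so RNA of astrocyte markers was present in the membrane captures. 6 libraries, all from trained mice, stood apart in these sums. The membrane Input libraries of mouse 16 (CFC Sleep) and mouse 22 (CFC SD) had excitatory sums of 5418 and 4867, against a median of 8541. The pS6 libraries of mouse 12 (CFC Sleep) and mouse 19 (CFC SD) had astrocyte sums of 1700 and 2189 in the cytosolic fraction (median 720) and 13060 and 14550 in the membrane fraction (median 6020). Calls that change without these 6 libraries are given both ways. In bulk RNA, fewer cells of a type and less RNA per cell cannot be told apart, and p-values measure the spread between these mice.

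Clustered protocadherins lie in 3 neighbouring gene arrays on chromosome 18 (GENCODE, GRCm38): Pcdha1 starts at 36930184, Pcdhb2 at 37294812 and Pcdhga1 at 37661793, and the gamma genes end at 37841873. Each alpha or gamma gene has its own promoter and 1 large variable exon, which is spliced to constant exons shared by its cluster, while beta genes have no constant exons. Promoter choice is largely random in single neurons and depends on CTCF and cohesin. The resulting surface code lets neurites of the same neuron recognise and avoid each other. C-type genes (Pcdhac1, Pcdhac2, Pcdhgc3, Pcdhgc4 and Pcdhgc5) stand at the ends of the alpha and gamma arrays and escape that random choice in part. Nonclustered protocadherins are single genes, divided into delta1 (Pcdh1, Pcdh7, Pcdh9, Pcdh11x), delta2 (Pcdh8, Pcdh10, Pcdh17, Pcdh18, Pcdh19) and others (Pcdh12, Pcdh15, Pcdh20), and several of them link to the WAVE complex that drives actin branching. As most clustered genes share exons, 39 kept genes share annotated exon bases with another gene, 32 of them alpha or gamma genes. How reads in shared exons were counted is not given in the sources used here. Pcdhga10, with 0 unshared exon bases, had a count in 0 libraries, and Pcdha4, with 404, had a mean count of 0.3. The alpha and gamma counts may thus leave out the shared exons. Values of single alpha and gamma genes, and sums over these classes, are uncertain to that extent.

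Nonclustered genes supplied most protocadherin counts, in summed CPM, in every library type. Their summed level in the membrane Camk2a libraries was 1725 ± 163.9 CPM (mean ± SD, n = 30 mice), against 309.0 ± 42.21 for gamma, 241.4 ± 26.65 for beta and 183.1 ± 19.51 for alpha genes. In the cytosolic Camk2a libraries the sums were 627.9 ± 63.71 for nonclustered, 175.8 ± 21.92 for gamma, 91.62 ± 9.986 for beta and 78.49 ± 8.678 for alpha genes. The 12 nonclustered genes thus exceeded the 54 clustered genes in summed CPM in both. In membrane Input the sums were 1206 ± 77.49, 305.6 ± 40.33, 166.3 ± 14.81 and 154.8 ± 12.92 CPM in the same order. These sums are not scaled by length, and most alpha and gamma genes have fewer unshared exon bases than the nonclustered genes. Per kb of unshared exon, mean cluster sums in cytosolic Camk2a libraries were 55.3 CPM for gamma, 28.03 for 11 alpha and 24.75 for beta genes. The order of clustered and nonclustered genes by counts need not hold per kb.

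On a per-length scale, CPM per kb of exon that no other gene shares, a small set of genes stood above the rest. In membrane Camk2a libraries Pcdh8 (arcadlin, an activity-induced protein that promotes the internalisation of N-cadherin) led with 61.9 ± 9.52 CPM per kb (SD, n = 30). It was followed by Pcdh9, a delta1 adhesion protein, at 48.8 ± 6.35, and by Pcdh20 at 38.1 ± 8.03. Pcdh8 was above Pcdh9 in 27 of 30 mice, and Pcdh9 above Pcdh20 in 27 of 30. Next came the C-type genes Pcdhac2, known for the tiling of serotonergic axons, at 34.1 ± 4.23, and Pcdhgc5, whose protein binds GABA-A receptors, at 33.3 ± 4.74. These neighbours lay within each other's spread. Pcdh19, the gene of an X-linked epilepsy, had 26.7 ± 2.68. The ranges of all these neighbours overlapped.

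The order changed between library types. In cytosolic Input Pcdh20 was first at 20.5 ± 3.23 CPM per kb, ahead of Pcdh8 at 17.1 ± 2.56 and Pcdh9 at 17.1 ± 1.55, and Pcdh8 was above Pcdh9 in 14 of 30 mice only. In the membrane pS6 libraries Pcdh19 reached 30.1 CPM per kb, behind Pcdh8 at 49.1, Pcdh9 at 41.2 and Pcdhac2 at 32.8. Pcdhgc5 was at 18.9 there, against 33.3 in the membrane Camk2a libraries. At the other end, Pcdh12, an endothelial protocadherin, had 0 counts in 17 of 30 cytosolic Camk2a libraries. Pcdha8 did not exceed 1.712 CPM in any library. Pcdh18 and Pcdh15, the latter a component of the hair-cell tip link, were also low in CPM per kb.

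**Figure D1:**
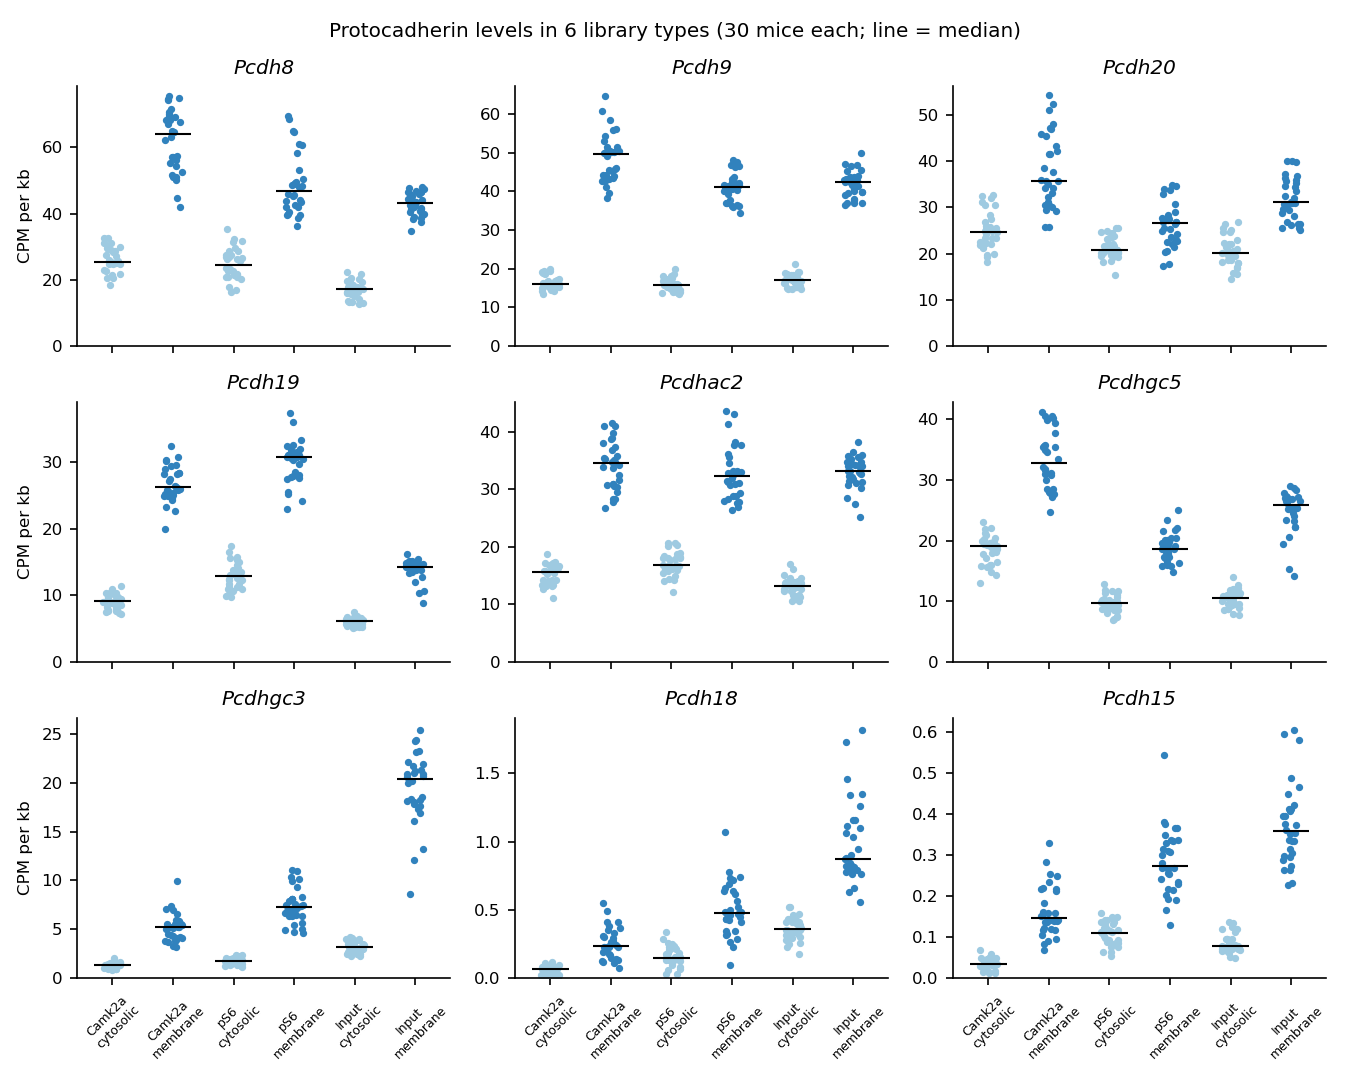
Levels of 9 protocadherin genes in CPM per kb of unshared exon (vertical axes, from 0) in the 6 library types, 1 point per mouse (30 per type), pale for cytosolic and dark for membrane, with a line at the median. In the membrane Camk2a libraries Pcdh8, Pcdh9 and Pcdh20 have the highest medians, and Pcdhgc3, Pcdh18 and Pcdh15 lie higher in Input than in the Camk2a capture of the same fraction.

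Within the clusters, the C-type genes Pcdhac2 and Pcdhgc5 took a large share. Pcdhac2 made up 54.4% of the summed per-kb level of the 11 alpha genes with a length in cytosolic Camk2a libraries and 52.1% in membrane ones. Its share was 63.6% and 60.8% in the pS6 libraries and 60.3% in both Input types. Pcdhgc5 held 33.5% and 34.6% of the gamma sum in the cytosolic and membrane Camk2a libraries, and 26.5% and 23.4% in Input. Pcdhgc3, whose protein binds the Wnt regulator Axin1, went the other way, with 2.37% and 5.40% in the Camk2a libraries and 8.05% and 18.2% in Input. The other C-type genes were smaller, Pcdhac1 with 4.11% to 5.11% of the alpha sum and Pcdhgc4 with 1.42% to 4.37% of the gamma sum over the 6 library types. These shares are means over 30 mice and are given as levels, without a test.

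Protocadherin RNA took a larger share of counts in membrane than in cytosolic libraries. This is usual for mRNAs of secreted and transmembrane proteins that are translated at the endoplasmic reticulum. The values are relative to the other genes of each library and do not give the amount of RNA in a fraction. A gene was called here if it passed edgeR's quasi-likelihood test and differed by at least 2-fold. The test needed a Benjamini-Hochberg adjusted p under 0.05 over all genes. Both fractions of a mouse entered the fits as separate libraries, without the mouse as a block, so standard errors ignore that pairing. In the Camk2a capture 44 of 65 tested protocadherins were called higher in the membrane fraction, against 27.9% of all genes, and 0 were called lower (10.2% of all genes). In the pS6 capture 42 of 65 were higher (25.3% of all genes) and 0 lower (9.96%), and in Input 54 of 64 were higher (22% of all genes) and 0 lower (8.97%). The median log2 difference of the protocadherins was 1.21, 1.26 and 1.23 in the Camk2a, pS6 and Input libraries, where that of all genes was -0.07, -0.03 and -0.12. 38 genes were called in all 3, and 11 in none, among them Pcdh12, which was too low to be tested. Without the libraries standing apart, Pcdhgc5 in the pS6 libraries went from 1.01 to 0.99 ± 0.05, under the 2-fold limit. Pcdh12 could then be tested there and was called higher in the membrane fraction, at 1.47 ± 0.50 (adjusted p = 0.00615, edgeR).

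The classes differed in size. The nonclustered median was 1.85 in the Camk2a libraries, with 10 of 11 tested genes called. Beta genes had a median of 1.45 and 18 of 21 called, and all 12 alpha genes were called, with medians of 1.23 for Pcdha1 to Pcdha12 and 1.22 for Pcdhac1 and Pcdhac2. Gamma genes were lower, at 0.54 for gamma A, 0.81 for gamma B and 1.18 for gamma C, and 4 of 21 were called. That is a smaller share than the 27.9% of all genes, though these medians lay above that of all genes, -0.07. In Input the gamma medians were 0.96, 1.17 and 1.15, and 13 of 21 gamma genes were called, against 22% of all genes.

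Pcdhgc3 had a large membrane excess in all 3 kinds of library. In Input it had 4.056 to 7.558 CPM in the cytosolic fraction (median 5.696) and 15.73 to 46.33 in the membrane fraction (median 37.1). The ranges did not overlap, and the log2 difference was 2.47 ± 0.08 (SE, 30 mice; adjusted p = 3.248e-38, edgeR). In the Camk2a and pS6 captures it was 2.01 ± 0.08 and 2.15 ± 0.07. Pcdh10, whose protein recruits the WAVE complex and takes part in synapse elimination, differed by 2.10 ± 0.05, 1.96 ± 0.04 and 1.69 ± 0.04 in the Camk2a, pS6 and Input libraries. Pcdh15 differed by 2.25 ± 0.14 in the Camk2a libraries and 1.96 ± 0.08 in Input. Pcdhb13 reached 2.09 ± 0.15 and Pcdhb22 2.04 ± 0.12 in the pS6 libraries.

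Pcdh20 was the nonclustered gene with the smallest membrane difference. It had 100.3 to 179.0 CPM in the cytosolic Camk2a libraries (median 135.9) and 141.7 to 297.9 in the membrane ones (median 196.3), overlapping ranges. Its log2 difference was 0.62 ± 0.06 there, 0.33 ± 0.04 in the pS6 capture and 0.49 ± 0.05 in Input, under the 2-fold limit each time. Among the clustered genes Pcdhgb2 (0.21 ± 0.09 in the Camk2a libraries) and Pcdhgb8, annotated as a polymorphic pseudogene (0.30 ± 0.17 in the pS6 libraries), differed least. In the Camk2a libraries 9 of 12 alpha, 18 of 21 beta, 8 of 21 gamma and 11 of 12 nonclustered genes were higher in the membrane fraction in 30 of 30 mice.

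**Figure D2:**
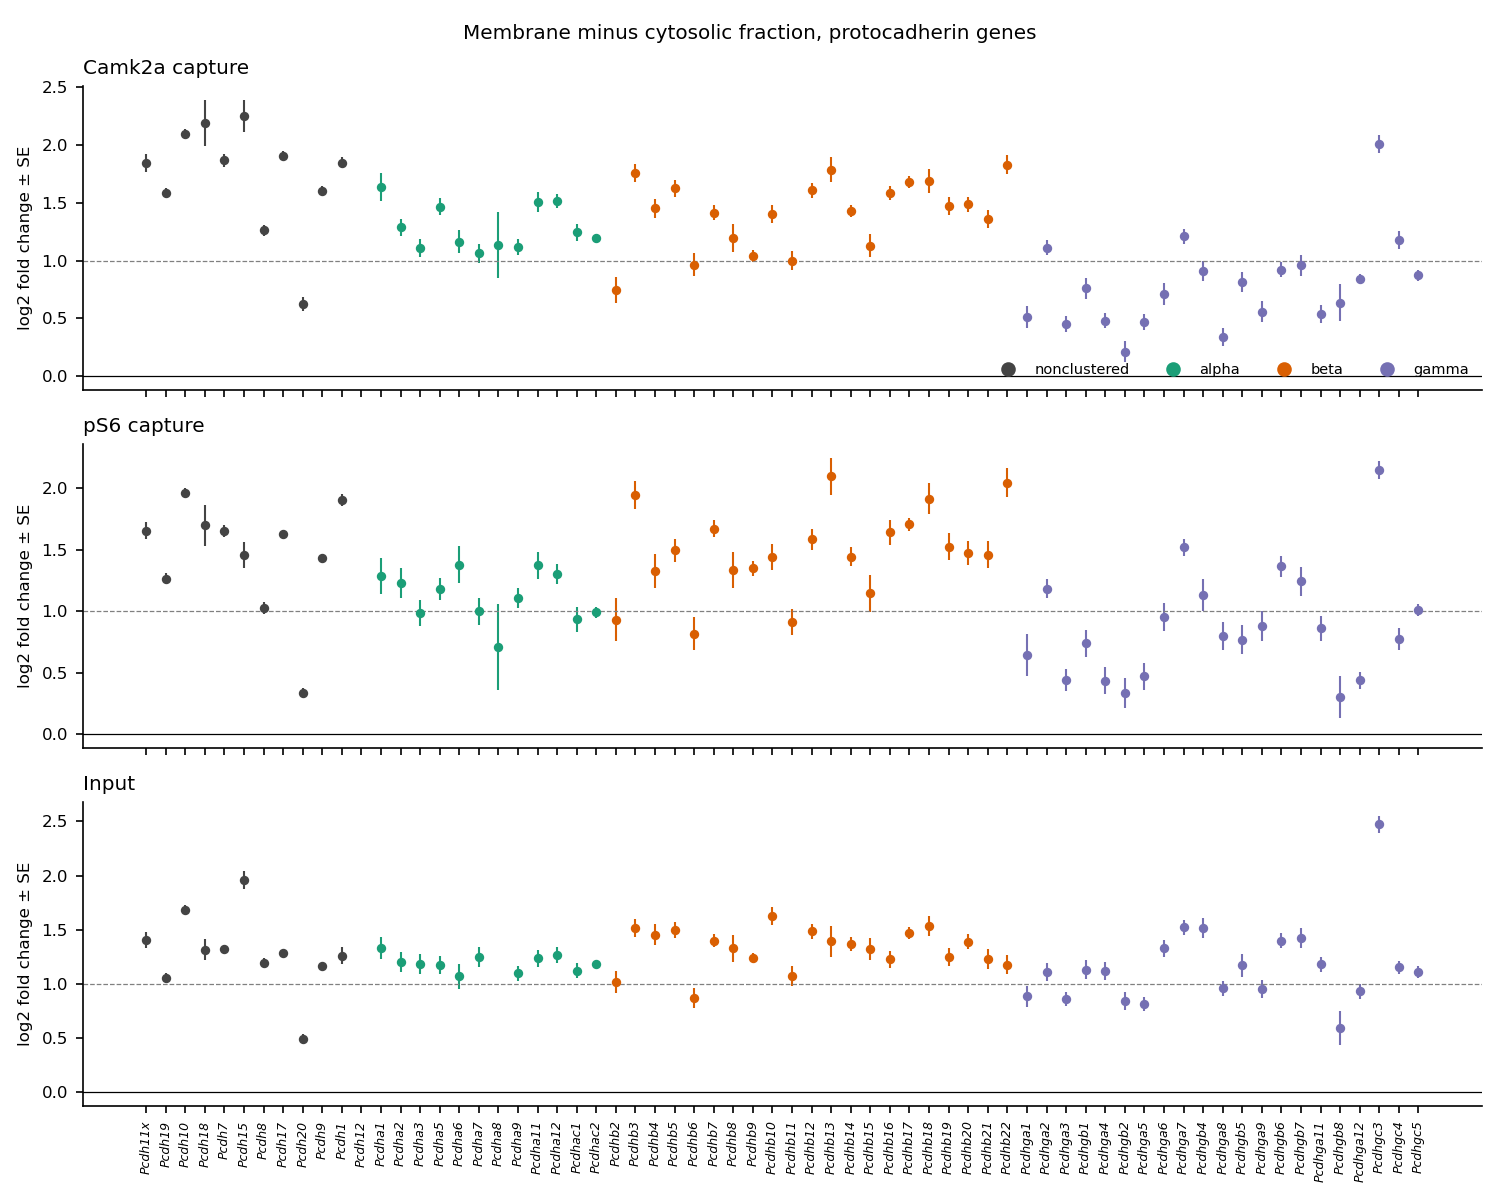
Log2 difference, membrane minus cytosolic fraction, ± SE (vertical axis) for each protocadherin gene (horizontal axis, coloured by class) in the Camk2a capture, the pS6 capture and Input, from 30 mice each; the dashed line marks a 2-fold difference. Most alpha, beta and nonclustered genes lie above the dashed line in all 3 panels, and most gamma genes lie below it in the Camk2a panel.

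Other genes of the pathway were read from fixed lists. Of 27 classical and atypical cadherins, 26 were called higher in the membrane fraction of the Camk2a libraries, with a median of 1.63. Of 8 catenins, the cytoplasmic partners of classical cadherins, 1 was higher (Ctnnd1, 1.27). Of 26 known partners and effectors, 7 were higher, near the share of all genes (27.9%), and 8 lower (10.2% of all genes). The higher ones included Psen2 (1.85 ± 0.04) and Aph1a (1.70 ± 0.05), subunits of the gamma-secretase that cleaves protocadherins, and N-cadherin (Cdh2, 1.41). The lower ones included the kinase Pak1 (-1.67 ± 0.02) and the WAVE complex genes Abi1 (-1.44) and Wasf1 (-1.38).

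Captures were compared with Input of the same fraction by the same rule, again without the mouse as a block. Both comparisons use the same Input libraries, so they are not independent. In the cytosolic fraction 4 protocadherins were lower in the Camk2a capture than in Input (16.5% of all genes were lower) and 0 were higher (0.371% of all genes). They were Pcdh18 (-2.81 ± 0.15), Pcdh15 (-1.46 ± 0.12), Pcdhgc3 (-1.44 ± 0.07) and Pcdhgc4, a gene needed for interneuron survival (-1.31 ± 0.07). In the membrane fraction the same 4 were lower (16.8% of all genes): Pcdh18 -1.95 ± 0.13, Pcdhgc3 -1.93 ± 0.08, Pcdhgc4 -1.30 ± 0.07 and Pcdh15 -1.18 ± 0.10. Pcdhb13 (1.17 ± 0.11) and Pcdh1 (1.14 ± 0.07) were higher there (1.9% of all genes).

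Sample values show the separation. Pcdh18 had 0 to 0.6167 CPM in the cytosolic Camk2a libraries (median 0.3599) and 0.9519 to 2.805 in Input (median 1.937), and the ranges did not overlap. Pcdhgc3 had 1.523 to 3.74 CPM in the cytosolic Camk2a libraries (median 2.42), all below the lowest Input value of 4.056, and it was lower than Input in 30 of 30 mice. In the membrane fraction Pcdhgc3 had 5.814 to 18.03 CPM in the Camk2a libraries (median 9.458), which overlaps Input, and 1 mouse had the higher value in the capture. Pcdh1 had 135.5 to 207.3 CPM in the membrane Camk2a libraries and 30.4 to 99.47 in Input, higher in 30 of 30 mice and with no overlap. Pcdhb13 was higher in 29 of 30. Beside these, in the same cytosolic comparison, 12 of 13 astrocyte, 12 of 12 oligodendrocyte, 12 of 12 microglia, 8 of 8 oligodendrocyte precursor and 15 of 16 inhibitory neuron markers were called lower in the Camk2a capture. Their part in the protocadherin values was not tested.

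In the pS6 capture Pcdhgc3 and Pcdh18 were lower than Input in the cytosolic fraction, at -1.01 ± 0.07 and -1.29 ± 0.13 (8.84% of all genes were lower), and 0 protocadherins were higher (11.4%). In the membrane fraction Pcdh19 (1.11 ± 0.04) and Pcdh7 (1.03 ± 0.04), a delta1 protocadherin, were higher than Input (7.23% of all genes). Pcdh19 had 238.6 to 389.5 CPM in the membrane pS6 libraries (median 319.9) and 91.66 to 168.7 in Input (median 147.8). Pcdh7 had 119.5 to 210.8 CPM against 60.14 to 96.87. Neither pair of ranges overlapped, and both genes were higher in 30 of 30 mice. Lower there were Pcdhgc3 (-1.40 ± 0.08), Pcdhgb2 (-1.10 ± 0.11), Pcdhga8 (-1.08 ± 0.10), Pcdhgc4 (-1.07 ± 0.08), Pcdhga11 (-1.05 ± 0.09) and Pcdhga4 (-1.05 ± 0.10), all 6 of them gamma genes (3.62% of all genes were lower). Medians over the whole subfamilies were -0.84 for gamma A and -0.75 for gamma B. In this comparison 1 of 13 astrocyte, 9 of 12 oligodendrocyte and 3 of 12 microglia markers were lower.

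Set directly against each other in the cytosolic fraction, the pS6 capture had more Pcdh15 (1.54 ± 0.13) and Pcdh18 (1.41 ± 0.21) than the Camk2a capture (22.3% of all genes were higher). It had less of 10 others, all clustered (8.36% of all genes were lower), among them Pcdhga8 (-1.31 ± 0.09), Pcdhga9 (-1.18), Pcdhga11 (-1.15), Pcdhb2 (-1.15) and Pcdhgc5 (-1.02 ± 0.05). Pcdhb13, at -1.03, was 1 of the 10, and without the libraries standing apart it was at -0.99, under the 2-fold limit. In the membrane fraction 1 gene was lower, Pcdha11 at -1.04 ± 0.10 (1.41% of all genes; 2 protocadherins were lower with the mouse as a block), and 0 were higher (16.5% of all genes). Pcdh18, at 0.97 ± 0.16 there, reached 1.03 ± 0.15 and passed the limit without the libraries standing apart.

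The Camk2a enrichment itself was compared between fractions, as the capture-minus-Input difference in the membrane fraction less that in the cytosolic fraction. 0 protocadherins passed with a difference of 1 log2 unit or more, where 7.56% of all genes passed above 0 and 0.651% below 0. At an adjusted p under 0.05 of any size (edgeR), 34 of 66 passed, 10 above 0 and 24 below 0, against 28.1% and 28.2% of all genes. The 24 below 0 were mostly gamma genes: 18 of 21 gamma genes passed and all 18 were below 0, with a class median of -0.53, where the median of all genes was 0.004. The largest were Pcdhga11 (-0.77 ± 0.10), Pcdhga4 (-0.77 ± 0.10) and Pcdhgb2 (-0.77 ± 0.12). Pcdhga11 had 3.888 to 7.197 CPM in the cytosolic Camk2a libraries and 2.051 to 5.287 in cytosolic Input, but 3.846 to 11.33 and 6.438 to 11.9 CPM in the membrane pair. Its mean was thus above Input in the cytosolic fraction and below Input in the membrane fraction.

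Nonclustered genes lay on the other side. Of 12, 8 passed and all 8 were above 0, including Pcdh17 (0.49 ± 0.05), whose protein gathers WAVE components along axons, Pcdh1 (0.46 ± 0.09), Pcdh7 (0.42 ± 0.07) and Pcdh19 (0.39 ± 0.06). Pcdh8 (-0.06 ± 0.07) and Pcdh20 (0.00 ± 0.08) did not pass. Among beta genes 2 passed above 0, Pcdhb22 at 0.52 ± 0.12 among them, and 4 below 0, and 2 alpha genes passed below 0. For the pS6 capture 12 of 21 gamma genes passed, all below 0 (16.1% of all genes were below 0, 31.6% above), with a median of -0.33 against 0.09 for all genes. Pcdhga4 was at -0.69 ± 0.13 and Pcdhgb2 at -0.52 ± 0.14. There 7 beta genes passed above 0, Pcdhb22 (0.86 ± 0.15) and Pcdhb13 (0.70 ± 0.21) among them, and of 12 nonclustered genes 7 passed above 0 and 3 below, Pcdh1 at 0.64 ± 0.08 and Pcdh15 at -0.51 ± 0.14. In the Camk2a comparison 9 of 13 astrocyte, 11 of 12 oligodendrocyte, 10 of 12 microglia and 10 of 16 inhibitory neuron markers passed above 0 with at least 1 log2 unit (medians 1.33, 1.91, 1.68 and 1.65), and 0 of 10 excitatory neuron markers did (median 0.07). Their part in the protocadherin values was not tested.

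**Figure D3:**
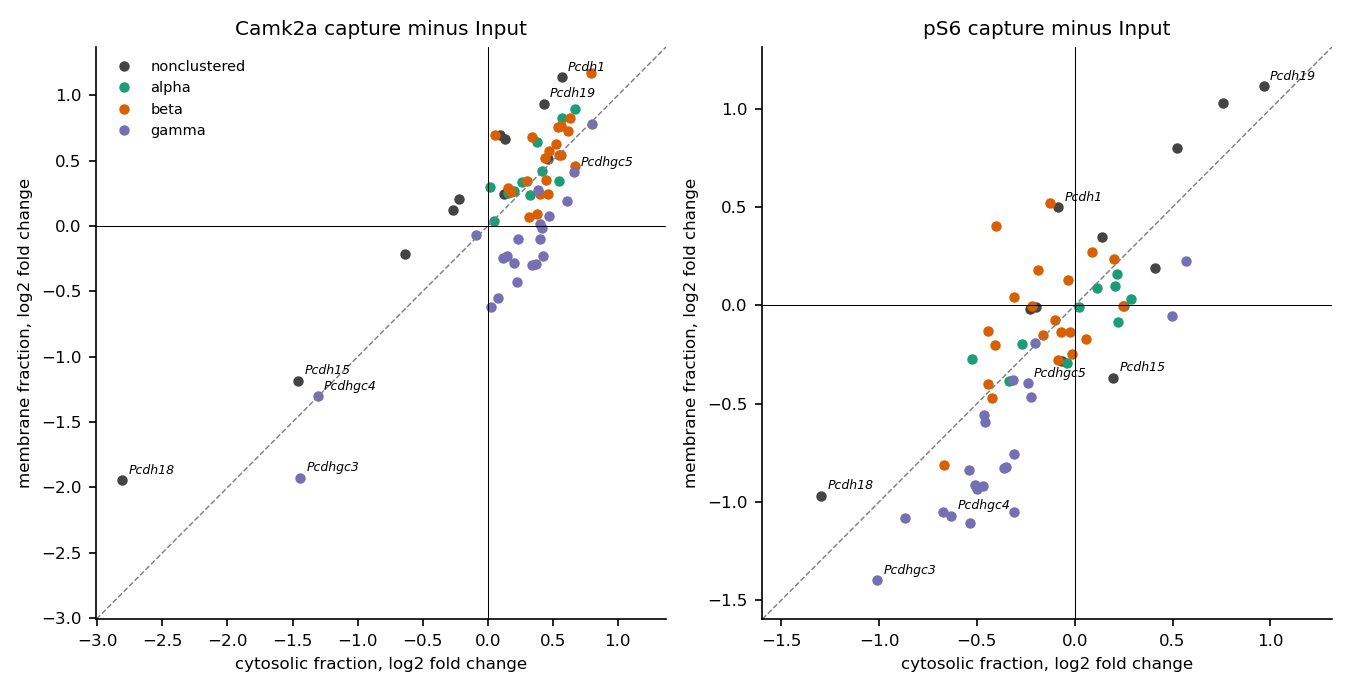
Capture minus Input (log2) in the cytosolic fraction (horizontal axis) and the membrane fraction (vertical axis) for each tested protocadherin gene, coloured by class, for the Camk2a capture (left) and the pS6 capture (right); the dashed line marks equal values. Gamma genes lie mostly below the line and most nonclustered genes above it, while Pcdh18, Pcdh15, Pcdhgc3 and Pcdhgc4 lie far to the lower left in the left panel.

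Sleep deprivation changed few protocadherins. The test compared 14 SD with 16 Sleep mice within each library type, averaged over training, and a call needed an adjusted p under 0.05 in edgeR's quasi-likelihood test. In cytosolic pS6 libraries Pcdh8 rose, the 1 protocadherin called higher (4.6% of all genes were higher). In cytosolic Camk2a libraries Pcdh10 fell (2.15% of all genes were lower), and in membrane pS6 libraries Pcdh19 fell (0.619% of all genes were lower). In the membrane Camk2a, cytosolic Input and membrane Input libraries 0 protocadherins were called, where 2.97%, 3.17% and 1.37% of all genes were. At an unadjusted p under 0.05 (edgeR) those types held 2, 3 and 2 protocadherins, against 2204 of 14968, 2310 of 15948 and 1601 of 15642 genes.

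The start regions of these 3 genes are shown because they are the members that passed the sleep test, with motifs of general and activity-related promoters marked. Each line is the 250 bases before the annotated start on the gene's own strand, 5′ to 3′, from RefSeq on GRCm38.p6. The windows are chr14:79771313-79771562 on the minus strand for Pcdh8, chr3:45378148-45378397 on the plus strand for Pcdh10 and chrX:133688994-133689243 on the minus strand for Pcdh19. Capitals mark matches on either strand. The motifs searched were the core of the cAMP response element, TGACG, and the AP-1 site, which reads TGANTCA. Besides these the search covered the CCAAT box, the TATA box in the form TATAAA, and the GC box with the letters GGGCGG.
Pcdh8: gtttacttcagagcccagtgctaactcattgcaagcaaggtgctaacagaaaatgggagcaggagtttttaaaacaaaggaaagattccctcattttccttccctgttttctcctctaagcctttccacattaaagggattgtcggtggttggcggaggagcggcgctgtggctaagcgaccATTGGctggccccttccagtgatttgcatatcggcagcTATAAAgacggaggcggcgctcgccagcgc
Pcdh10: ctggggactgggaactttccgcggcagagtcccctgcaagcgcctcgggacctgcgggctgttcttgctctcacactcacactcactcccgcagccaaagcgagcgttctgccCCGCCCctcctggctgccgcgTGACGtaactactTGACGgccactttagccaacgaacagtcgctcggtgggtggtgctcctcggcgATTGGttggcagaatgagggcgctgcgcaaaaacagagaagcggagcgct
Pcdh19: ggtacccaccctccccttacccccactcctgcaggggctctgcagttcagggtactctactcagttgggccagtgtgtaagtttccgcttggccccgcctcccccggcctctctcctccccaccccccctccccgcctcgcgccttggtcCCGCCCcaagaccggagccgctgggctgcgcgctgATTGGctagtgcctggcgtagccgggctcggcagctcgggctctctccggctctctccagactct

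The Pcdh8 window holds TATAAA 30 to 25 bases before the start and CCAAT 68 to 64 bases before it. The Pcdh10 window holds TGACG at 116 to 112 and at 103 to 99 bases before the start, besides 1 GGGCGG and 1 CCAAT. The Pcdh19 window holds GGGCGG and CCAAT. Of all 32851 promoters of this length, 17.8% hold TGACG, 6.75% TGANTCA, 33.9% CCAAT, 12.4% TATAAA and 32.7% GGGCGG. GC content was 51.2% for Pcdh8, 63.2% for Pcdh10 and 69.2% for Pcdh19, against a median of 52.4%. Only 9 of the 66 kept genes had an entry in the table, and a match is a description of letters, not a binding site.

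Pcdh8, a gene at chr14:79766775-79771312 on the minus strand, had in cytosolic pS6 libraries 66.5 to 118 CPM in the 16 Sleep mice (median 91.16) and 72.49 to 145.6 in the 14 SD mice (median 111.7). By group, NoCFC Sleep mice had 66.5 to 96.28 (median 85.77), NoCFC SD mice 72.49 to 145.6 (median 108.2), CFC Sleep mice 89.73 to 118 (median 101.8) and CFC SD mice 89.68 to 132.7 (median 121.8). SD mice were higher in both training arms, with overlap, and 11 of 14 SD mice lay above the Sleep median of their own arm. The log2 difference was 0.30 ± 0.07 (adjusted p = 0.00478, edgeR). It was 0.29, 0.18 and 0.43 in mice 1 to 11, 12 to 22 and 23 to 30 taken separately. In the other types it was -0.02 ± 0.07 (cytosolic Camk2a), 0.11 ± 0.06 (membrane pS6; adjusted p = 0.383, edgeR) and between -0.04 and 0.00 in the rest. The difference of the sleep effect between the pS6 and Camk2a captures, 0.31 ± 0.10, did not pass (adjusted p = 0.171, edgeR). With the mouse as a block, since both captures came from the same animals, it was 0.30 ± 0.06 and passed (adjusted p = 0.00109, edgeR). With mice 1 to 22 only, the sleep difference of Pcdh8 was 0.23 ± 0.07 and did not pass (adjusted p = 0.103, edgeR). In the same libraries all 14 of 14 activity-regulated reference genes, a list with Fos, Arc and Bdnf, rose, with a median of 0.72, and 10 of 16 inhibitory neuron markers rose as well. The summed inhibitory markers ran from 1505 to 2037 CPM in Sleep (median 1735) and from 1686 to 2239 in SD mice (median 1886), while the excitatory sum had medians of 10070 and 9221 (2 of 10 lower) and the astrocyte sum of 693.9 and 827.6 (1 of 13 higher). Of all genes, 4.6% were called higher and 3.28% lower for sleep in these libraries. The reference list was chosen with earlier results of these data known. The part of these markers in the Pcdh8 value was not tested.

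Pcdh10, at chr3:45378398-45435623 on the plus strand, had in cytosolic Camk2a libraries 21.11 to 32.09 CPM in Sleep (median 27.43) and 20.59 to 30.93 in SD mice (median 23.71). The groups overlapped, and 12 of 14 SD mice were at or under the Sleep median of their arm. The log2 difference was -0.17 ± 0.05 (adjusted p = 0.0485, edgeR), close to the threshold, and -0.22, -0.13 and -0.15 in the 3 number ranges. The call ended with number range as a term (-0.17, adjusted p = 0.0546), without a filter on low counts (adjusted p = 0.0897) and with mice 1 to 22 only (-0.18, adjusted p = 0.136; all edgeR). The difference ranged from -0.09 to 0.01 in the other types.

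Pcdh19, at chrX:133582860-133688987 on the minus strand, had in membrane pS6 libraries 292 to 389.5 CPM in Sleep (median 323.1) and 238.6 to 337.4 in SD mice (median 289.5). SD mice were lower with overlap, and 11 of 14 were at or under the Sleep median of their arm. The log2 difference was -0.17 ± 0.04 (adjusted p = 0.0167, edgeR), and -0.15, -0.18 and -0.20 in the 3 number ranges. In cytosolic pS6 libraries it had the same size, -0.17 ± 0.06, without passing (adjusted p = 0.0937, edgeR). Summed inhibitory markers in membrane pS6 libraries ran from 3461 to 4868 CPM in Sleep and 3833 to 5280 in SD mice, with 4 of 16 called higher. Excitatory markers had a median sum of 10180 in Sleep and 9319 in SD mice, with 3 of 10 called lower and 1 higher, and CA1 markers of 2467 and 2266, also with 3 of 10 lower and 1 higher. Astrocyte markers had medians of 5309 and 6339, with 0 of 13 called. Of all genes, 1.11% were called higher and 0.619% lower for sleep in these membrane pS6 libraries. The part of these markers in the Pcdh19 value was not tested. With mice 1 to 22 only, its difference was -0.17 ± 0.05 and did not pass (adjusted p = 0.157, edgeR).

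**Figure D4:**
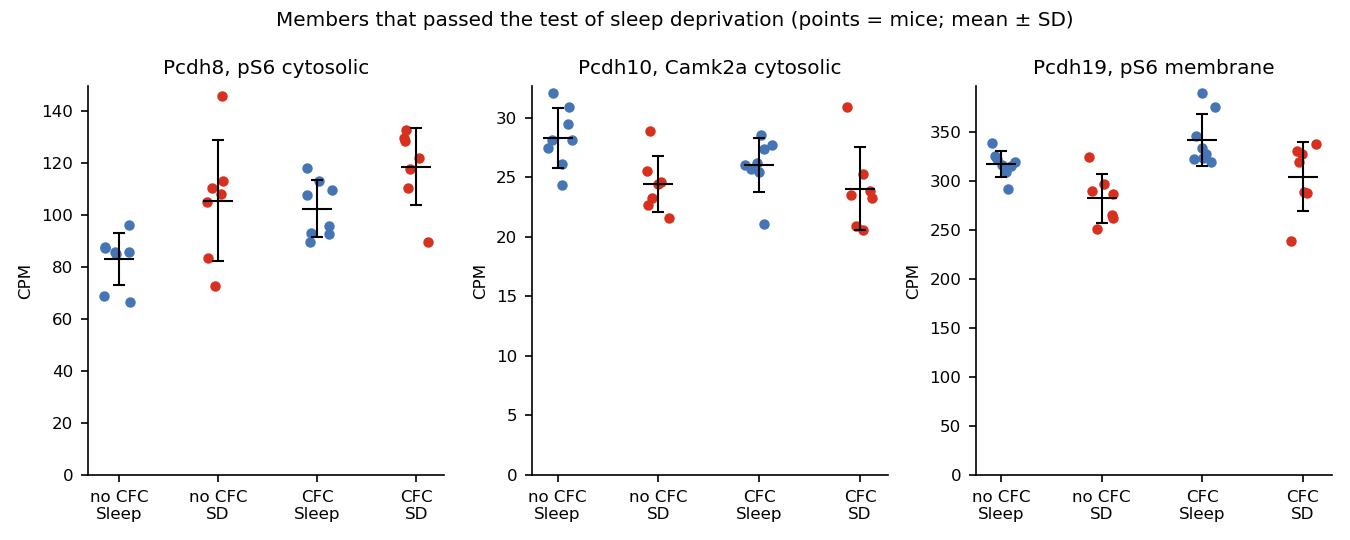
CPM (vertical axis, from 0) of Pcdh8 in cytosolic pS6, Pcdh10 in cytosolic Camk2a and Pcdh19 in membrane pS6 libraries by training and sleep group (blue Sleep, red sleep-deprived), 1 point per mouse with the mean and standard deviation. Pcdh8 lies higher and Pcdh10 and Pcdh19 lower in sleep-deprived mice of both training arms, and the groups overlap in every panel.

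Without the mouse as a block, 0 protocadherins passed for a sleep effect that differs by fraction, by capture or by training. With it, Pcdh8 passed by capture in the cytosolic fraction, as given above. The share of all genes that passed with the block is not given here. In the fits without it, 0.586% of all genes passed for the sleep effect by capture in cytosolic and 0.0589% in membrane libraries. In these fits 0 of all genes passed for the effect by fraction or for training by sleep in any type. At an unadjusted p under 0.05 (edgeR), training by sleep gave 0 to 3 protocadherins and 295 to 712 genes per library type. The effect by fraction gave 0 to 4 protocadherins and 391 to 842 genes. The effect by capture gave 6 protocadherins and 1388 of 16730 genes in cytosolic libraries. In membrane libraries it gave 0 protocadherins and 755 of 16982 genes. DESeq2, also without the block, called 0 protocadherins in each of these tests. On the pathway lists, the WAVE gene Wasf1 fell in cytosolic pS6 (-0.14 ± 0.03), membrane pS6 (-0.18) and cytosolic Camk2a libraries (-0.11). The kinase Map2k3 (0.37 ± 0.05) and Ubash3b (0.24) rose in cytosolic pS6 libraries. Of 27 classical and atypical cadherins and 8 catenins, 0 were called for sleep.

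Training had its calls in the membrane fraction. In membrane Camk2a libraries 23 of 65 tested protocadherins were higher in trained mice (9.81% of all genes were higher) and 1 was lower (7.17%). In membrane pS6 libraries 8 were higher (8.1% of all genes) and 0 lower (8.75%). In membrane Input 2 were higher (3.63% of all genes) and 1 lower (2.9%). In the 3 cytosolic types 0 were called, where 0.148%, 0.133% and 0.219% of all genes were in the Camk2a, pS6 and Input libraries. At an unadjusted p under 0.05 (edgeR) there were 3, 7 and 1, against 1144 of 14836, 1123 of 16485 and 1455 of 15948 genes. DESeq2 also called 0 in these 3 types. Whether the training effect differs between the fractions was not tested. These differences run along mouse number as well as training. With number range as a term, 0 protocadherins were called in membrane Camk2a and Input libraries and 1 in membrane pS6 libraries. That term takes the training difference from mice 23 to 30 only, with 4 mice an arm. It has less precision than the fit over 30 mice, so a call lost under it does not show that a difference is absent.

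Gamma genes made up 13 of the 23 in membrane Camk2a libraries: 9 of 11 gamma A (median log2 difference 0.34), 2 of 7 gamma B and 2 of 3 gamma C genes. The others were 5 beta genes, 3 alpha genes, Pcdh8 and Pcdh20. Among the largest were Pcdhga6 (0.50 ± 0.14), Pcdhb6 (0.49 ± 0.14), Pcdhga1 (0.46 ± 0.11) and Pcdhgc3 (0.45 ± 0.10). With number range as a term, which takes the training difference from mice 23 to 30 only, none of the 23 stayed called. Standard errors were larger in that fit. Pcdhga6 was then at 0.27 ± 0.27, Pcdhb6 at 0.46 ± 0.29 and Pcdhgc3 at 0.10 ± 0.17, and Pcdhga1 and Pcdhga11 changed sign, to -0.04 and -0.02. The lower gene was Pcdha8 (-1.43 ± 0.34), whose level in these libraries was 0.04293 to 1.251 CPM (within mice 23 to 30, -1.77 ± 0.71, not called). The median of all protocadherins was 0.20, against -0.01 for all genes, and 56 of 65 lay above 0. Beside this, 7 of 13 astrocyte, 8 of 12 microglia and 5 of 12 oligodendrocyte markers were higher and 4 of 10 excitatory neuron markers lower in trained mice. Summed astrocyte markers ran from 2300 to 3553 CPM in untrained (median 2871) and 2152 to 5084 in trained mice (median 3625). The part of these markers in the protocadherin values was not tested.

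Pcdh20, a nonclustered gene at chr14:88464743-88471396 on the minus strand, was higher in all 3 membrane types. In the Camk2a libraries it had 141.7 to 237.2 CPM in 15 untrained (median 171.2) and 188 to 297.9 in 15 trained mice (median 249.9), a log2 difference of 0.40 ± 0.08 (adjusted p = 0.000689, edgeR). In pS6 libraries it had 94.5 to 153.4 against 139.5 to 191.3 CPM (0.36 ± 0.06, adjusted p = 0.000123, edgeR), and in Input 138.1 to 193.8 against 162.3 to 219.7 (0.28 ± 0.05, adjusted p = 0.00128, edgeR). The groups overlapped, yet in each of the 3 types 15 of 15 trained mice lay above the untrained median of their own sleep arm. Within mice 23 to 30, 4 untrained and 4 trained, the differences were of like size, 0.33 ± 0.14, 0.33 ± 0.11 and 0.31 ± 0.10, and none was called. In the Camk2a libraries untrained mice 1 to 11 had a median of 167.3 CPM and untrained mice 23 to 30 of 213.6 (171.2 to 237.2), while trained mice 12 to 22 had 227.9 and trained mice 23 to 30 had 258.3 (249.9 to 287.4). Between the 2 number ranges of untrained mice the difference was 0.30 ± 0.11 (adjusted p = 0.131, edgeR).

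Pcdh8 passed in 2 membrane captures. In pS6 libraries it had 148.1 to 201.4 CPM in untrained (median 172.7) and 181.5 to 285 in trained mice (median 218.6), a difference of 0.38 ± 0.06 (adjusted p = 1.715e-05, edgeR). Within mice 23 to 30 the 4 untrained mice had 162.5 to 201.4 CPM and the 4 trained mice 249.5 to 285, with no overlap. That difference, 0.51 ± 0.09, was the 1 protocadherin called there (adjusted p = 0.0178, edgeR), where 0.0721% of all genes were called. In membrane Camk2a libraries Pcdh8 had 172.7 to 283.5 against 230.6 to 309.4 CPM (0.27 ± 0.06, adjusted p = 0.00268, edgeR). There, within mice 23 to 30, untrained mice had 266.3 to 283.5 and trained mice 255.3 to 309.4 CPM, and the difference was 0.07 ± 0.10. Untrained mice 23 to 30 exceeded untrained mice 1 to 11 by 0.37 ± 0.08 (adjusted p = 0.00605, edgeR) in those libraries.

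C-type genes are given by number range as well. Pcdhgc5 in membrane Camk2a libraries was higher in trained mice by 0.25 ± 0.06, and 15 of 15 trained mice lay above the untrained median of their sleep arm. It had 114.1 to 147.9 CPM in untrained mice 1 to 11, 131.8 to 164.6 in untrained mice 23 to 30, 138.6 to 189.7 in trained mice 12 to 22 and 164.2 to 186.9 in trained mice 23 to 30. Within mice 23 to 30 the difference was 0.19, not called. Pcdhgc3 differed by 0.45 ± 0.10 over all mice and by 0.09 within mice 23 to 30, while untrained mice 23 to 30 stood 0.43 ± 0.14 above untrained mice 1 to 11 (adjusted p = 0.0776, edgeR). In membrane pS6 libraries its difference of 0.33 ± 0.10 was not called without the libraries standing apart (0.27 ± 0.10, adjusted p = 0.0700, edgeR). Pcdhac2 was higher by 0.20 ± 0.05 in Camk2a and 0.21 ± 0.06 in pS6 membrane libraries. In the membrane Camk2a libraries it had medians of 91.99 CPM in untrained mice 1 to 11, 105.6 in untrained mice 23 to 30, 111.4 in trained mice 12 to 22 and 117.4 in trained mice 23 to 30. In the membrane pS6 libraries the medians were 87.39, 97.44, 100.2 and 120.5 in the same order. The Pcdhac2 differences within mice 23 to 30 were 0.13 ± 0.10 and 0.24 ± 0.10, neither of them called.

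The remaining calls were few. In membrane pS6 libraries Pcdh11x (0.33 ± 0.09), Pcdh17 (0.16 ± 0.04), Pcdhb6 (0.52 ± 0.18) and Pcdhga5 (0.51 ± 0.15) were higher in trained mice. They were at 0.24 ± 0.18, 0.28 ± 0.08, 0.85 ± 0.35 and 0.40 ± 0.29 within mice 23 to 30, and none was called. In membrane Input Pcdhb9 was higher (0.19 ± 0.06), but not called without the libraries standing apart (0.18 ± 0.06, adjusted p = 0.0582, edgeR). Pcdh15 was lower there (-0.49 ± 0.10), and 15 of 15 trained mice lay at or under the untrained median of their arm. Within mice 23 to 30 the Pcdh15 difference was -0.04, and untrained mice 23 to 30 had 7.232 to 9.364 CPM against 8.893 to 14.36 in untrained mice 1 to 11.

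Over all protocadherins within mice 23 to 30, membrane Camk2a libraries gave 0 calls in either direction, and 0 of 14968 genes were called. There 12 of 65 had an unadjusted p under 0.05, 53 of 65 lay above 0, and the median was 0.21 against -0.01 for all genes. The share of all genes at that unadjusted limit is not given here. With 4 mice an arm this comparison has less precision than that over 30 mice. Between untrained mice 23 to 30 and 1 to 11 in the same libraries, which differ in no labelled treatment, 2 protocadherins were higher and 1 lower (3.71% of all genes were called).

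**Figure D5:**
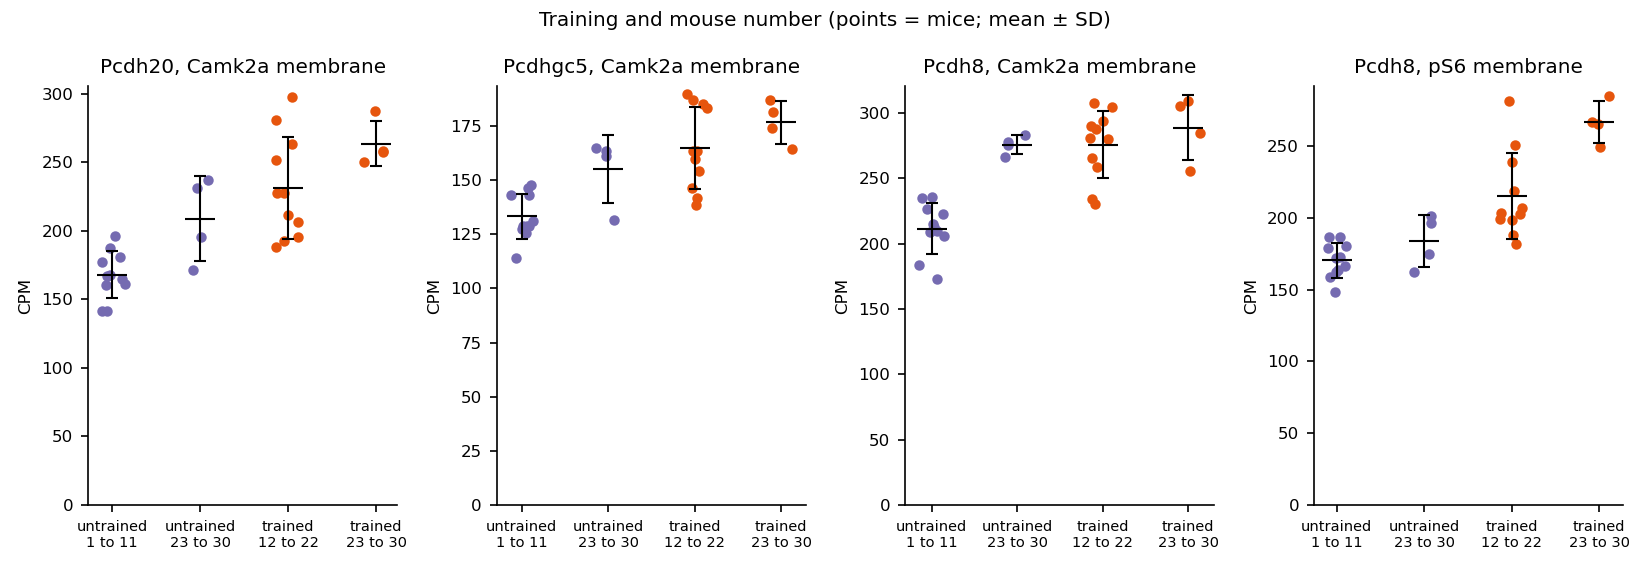
CPM (vertical axis, from 0) of Pcdh20, Pcdhgc5 and Pcdh8 in membrane Camk2a libraries and of Pcdh8 in membrane pS6 libraries, by training (purple untrained, orange trained) and range of mouse numbers, 1 point per mouse with the mean and standard deviation. Among mice 23 to 30, trained mice lie above untrained mice without overlap for Pcdh20 and for Pcdh8 in the pS6 libraries, and overlap them for Pcdh8 in the Camk2a libraries.

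Some regulators of the cluster promoters were lower in trained mice in the membrane captures. In membrane pS6 libraries 6 of 14 were lower and 0 higher, with a median of -0.26: the cohesin genes Smc1a (-0.47 ± 0.08), Smc3 (-0.39) and Stag1 (-0.41), the cohesin loader Nipbl (-0.23), the silencer Smchd1 (-0.37) and the DNA methyltransferase Dnmt3a (-0.36 ± 0.07). In membrane Camk2a libraries Smc1a (-0.24 ± 0.06) and Smc3 (-0.20 ± 0.07) were lower. Of all genes 8.75% were lower in the membrane pS6 libraries and 7.17% in the membrane Camk2a libraries. Of 27 classical and atypical cadherins, 5 were higher in trained mice in membrane Camk2a libraries, Cdh4 (0.32) and Cdh2 (0.21) among them. Of 26 partners and effectors 5 were higher there (9.81% of all genes), including Ncstn (0.22) and the protease Adam10 (0.21), and 2 lower, Cyfip2 (-0.18) and Ubash3b (-0.19). In membrane pS6 libraries 6 of the 26 were higher (8.1% of all genes) and 4 lower, Cyfip1 (-0.28 ± 0.05) among the latter. These lists share the same mice and number ranges as the protocadherins.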

How the data were processed

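The deposited table holds whole-number counts per gene symbol and library for 180 libraries, not normalized. Per the labels' protocols libraries were made with SMART-seq v4, and per the submitters' processing notes the tools were STAR 2.6.1a, featureCounts (no version) and MultiQC 1.6a0, with GRCm38.p6. Strand and multi-mapping settings are not given in the sources used here. All columns could be matched to a sample; 0 were left unassigned. CPM used TMM factors over all 180 libraries. Positions and lengths came from GENCODE.

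Each comparison was fitted on all genes passing edgeR's filterByExpr with edgeR 4.0.16 (glmQLFit, robust, and glmQLFTest; limma 3.58.1, R 4.3.3), as a model of group means, with Benjamini-Hochberg adjustment over all genes tested. A call needed an adjusted p under 0.05 and, for fraction and capture comparisons, a fold of 2. 34 comparisons were fitted. The standard error is the log2 difference divided by the square root of F. The script was tested on simulated data. Every kept protocadherin could be named. Value by value, the text gives those called for sleep or training, the largest changes in each direction of fraction and capture comparisons, and delta and C-type genes. Members and lists were chosen with earlier results of these data known.

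Libraries of the same number came from the same mouse, since the protocol divides each homogenate: their deviations from group means correlated with a median of 0.292, against -0.0137 for different mice, and 88.4% of same-mouse pairs were over 0.1. No 2 libraries of a group agreed within sampling noise (lowest chi-square per degree of freedom 2.85). Alternatives were RLE factors, DESeq2 1.42.0, no filter, mouse as a block, number range as a term and mice 1 to 22 only. Added after seeing the data were values within mice 23 to 30 and fits without the 6 libraries standing apart (astrocyte sum over 2 times, or excitatory sum under 0.65 times, the median of the type).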

Additional observations from a re-analysis of the deposited data

Results flagged for a closer look

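Among 84 groups of 7 or 8 mice examined for the genes given value by value, 5 had 1 mouse far from the rest, and chance gives about 1 group in 20. Pcdh8 in cytosolic Input of CFC SD mice had a highest value of 83.88 CPM, with the next at 72.68. Pcdh10 in cytosolic Camk2a libraries of CFC Sleep mice had a lowest value of 21.11 CPM, with the next at 25.46. Pcdh20 in membrane Camk2a libraries of NoCFC Sleep mice had a highest value of 237.2 CPM, with the next at 181.2. Pcdh17 in membrane pS6 libraries had a lowest value of 188.0 CPM in NoCFC Sleep mice, with the next at 214.0, and of 201.2 CPM in CFC SD mice, with the next at 252.0.

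The capture difference depended on the fraction for gamma genes, by the test of the difference itself. 18 of 21 gamma genes passed below 0 for the Camk2a capture and 12 of 21 for the pS6 capture (adjusted p under 0.05 of any size, edgeR), while 8 and 7 of 12 nonclustered genes passed above 0.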

How the results depend on the processing

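The counts of calls kept their size within 1.5 times under the alternatives run, except for those given here; the cause was not tested. With number range as a term, training gave 0 higher and 0 lower protocadherins in membrane Camk2a libraries, 1 higher in membrane pS6 and 0 and 0 in membrane Input, and the sleep count in cytosolic Camk2a (Pcdh10) went to 0. Under that term Pcdhga1 and Pcdhga11 in membrane Camk2a libraries changed sign, to -0.039 and -0.0159. Within mice 23 to 30 the training counts were 0 and 0, 1, and 0 and 0. Both models take the training difference from these same mice, so they are not independent checks. With mice 1 to 22 only, the 3 sleep counts were 0, training gave 1 lower in membrane pS6 and 1 higher in membrane Input. Without a filter the cytosolic Camk2a sleep count was 0 and membrane Input training gave 1 higher, as it did without the 6 libraries standing apart. DESeq2 gave 2 higher for sleep in cytosolic pS6 libraries. For pS6 minus Input in the cytosolic fraction DESeq2 and RLE factors gave 1 higher and 1 lower. For pS6 minus Camk2a in the membrane fraction, DESeq2, RLE factors and leaving out the 6 libraries gave 1 higher, and RLE factors gave 0 lower.

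With the mouse as a replicate block, the sleep effect by capture in the cytosolic fraction gave 1 higher protocadherin, and pS6 minus Camk2a in the membrane fraction 2 lower; the block changed no other count by more than 1.5 times. RLE factors gave 47, 46 and 57 protocadherins higher in the membrane fraction (Camk2a, pS6, Input), and shifted the median of all genes by at most 0.10. Depth limits the lowest genes, Pcdh12 and Pcdha8, most.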
